A study of Mus musculus with 12 samples.

Results

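Genes that mark the inner lining of blood and lymphatic vessels were followed in mammary glands that carried early oncogene-driven lesions. The set holds 32 genes of the 54532 in the deposited expression table, chosen by name as genes used to mark endothelial cells. Of these, 28 mark blood vessel endothelium or are shared by both kinds of vessel, and 4 (Lyve1, Flt4, Prox1 and Mmrn1) are used to mark lymphatic endothelium. All 32 were found in the table. The tissue was the hyperplastic mammary gland of female mice of strain FVB/N, sequenced as 12 libraries, 4 of each genotype, labelled MIC Stat3 ko, MIC Chi3l1 ko and MIC WT. All 3 groups carried MIC and were given water with doxycycline at 2 mg/ml, and 2 wk stands in the titles of all samples. MIC is a mouse model whose mammary epithelial cells make polyoma middle T, and Cre with it, once doxycycline is given. The labels give neither the promoter nor the altered Stat3 and Chi3l1 alleles, nor the age of the mice. Nor do they say how the 4 samples within a group were obtained, so the p-values measure the spread between these samples, which may be technical. The libraries are written Stat3 ko 1 to 4, Chi3l1 ko 1 to 4 and WT 1 to 4, and values listed for a group follow that order.

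Endothelial cells line every blood and lymphatic vessel and hold together through junction proteins such as VE-cadherin, the product of Cdh5. Vascular endothelial growth factors act on them through the receptors encoded by Flt1, Kdr and Flt4, angiopoietins act through Tek, and transcription factors of the ETS and SOX families keep them endothelial. Lymphatic endothelium arises when Prox1 is switched on, and it is known for Lyve1 and for the receptor Flt4. In the mammary gland, vessels run through the fat pad around the epithelial ducts.

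Levels are in FPKM, fragment counts divided by gene length and by a scaling total for each library, so genes can be compared within a library. Total counts ran from 16217143 to 22607123 per library. The scaling total was 0.926 times the total count in Stat3 ko 1 and 1.02 to 1.14 times in the other 11 libraries, which places FPKM of Stat3 ko 1 higher against the others than plain totals would. Stat3 itself was at 12.2 to 18.7 FPKM in Stat3 ko, 46.7 to 53.3 FPKM in Chi3l1 ko and 46.2 to 49.7 FPKM in WT. Chil1, the mouse gene for Chi3l1, was at 4.92 to 17.6 FPKM in Stat3 ko, 0 to 0.0323 FPKM in Chi3l1 ko and 107 to 212 FPKM in WT. These ranges follow the labels. The Stat3 ko libraries stood apart from one another. Stat3 ko 1 held the highest summed adipocyte markers (9061 FPKM over 12 genes) and 4.79% mitochondrial counts, and Stat3 ko 2 held the highest summed T cell and B cell markers (274 FPKM over 9 genes and 431 FPKM over 7 genes) and 3.37% mitochondrial counts. Chi3l1 ko 2 held 2.22% mitochondrial counts, and the other 9 libraries held 1.002% to 1.88%.

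Each of the 32 genes was detected, and all but Mmrn1 in every library, the best-known pan-endothelial markers Pecam1 and Cdh5 included. Plvap, a protein of the diaphragms of capillary pores, had the highest mean of all members in each genotype, with 53.5 ± 13.6 FPKM in Stat3 ko, 29.1 ± 5.44 FPKM in Chi3l1 ko and 29.9 ± 5.08 FPKM in WT (SD, n = 4 each). Over all 12 libraries Eng, Cdh5, Sox18 and Pecam1 followed it in mean level, and their ranges overlapped one another within each genotype. The lymphatic genes Flt4, Prox1 and Mmrn1 lay lowest and did not reach the filter of 1 FPKM in 4 of 12 libraries, so 29 members were tested with limma. In whole tissue, fewer cells of a type and less RNA per cell cannot be told apart.

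**Figure D1:**
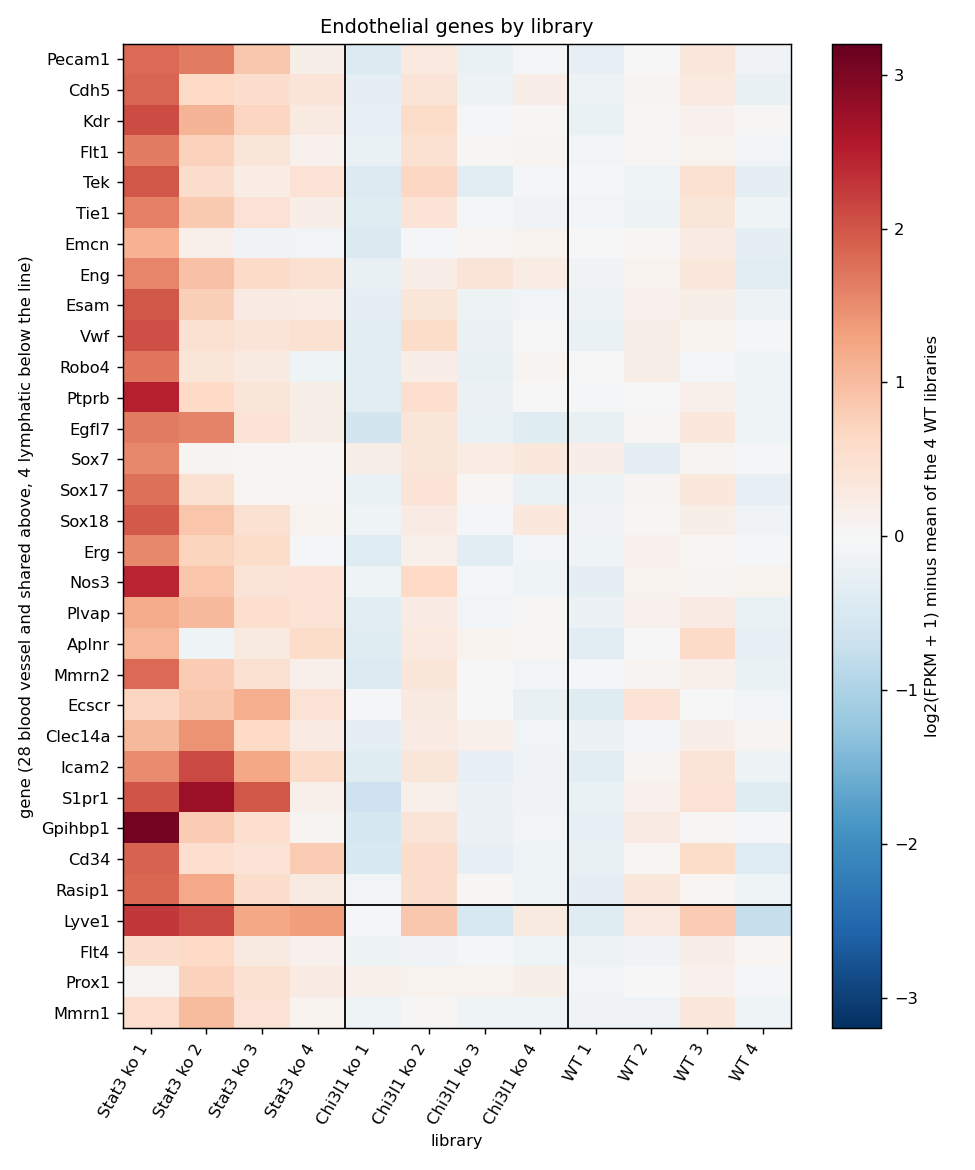
Each row is 1 of the 32 endothelial genes and each column 1 of the 12 libraries, and the colour is log2(FPKM + 1) minus the mean of the 4 WT libraries, red for higher and blue for lower. Stat3 ko 1 and Stat3 ko 2 are red over most rows, Stat3 ko 4 is close to WT, and among the Chi3l1 ko libraries Chi3l1 ko 2 is the reddest.

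Promoter windows show what sequence some of these genes share ahead of their starts. RefSeq windows (GRCm38.p6) were available for 15 of the 32 members, 20 windows in all, and the 250 bases before each start were searched on both strands. The letters CAGGAA, a form of the site read by ETS factors such as Erg, stood in 11 of 20 windows (55%) of 10 genes, against 25.7% of all 32851 windows. AACAAT, a form of the site read by SOX factors, stood in 4 of 20 (20%), against 9.42% of all windows. TTCNNNGAA, the palindrome read by STAT factors, stood in 0 of 20, against 7.02% of all windows. CAGGAA and TTCNNNGAA share the letters GAA, so 1 stretch could count for both. A match describes letters only, and its absence says nothing of the factor outside these windows. Windows of 4 genes that carry the ETS form are shown, as they differ in role and in whether limma tested and called them. They run 5′ to 3′ on the gene's strand and end at the base before the RefSeq start. Capitals mark CAGGAA or its reverse complement TTCCTG. Egfl7 was called higher in Stat3 ko than in Chi3l1 ko by limma, Tek and Cd34 passed in neither comparison, and Mmrn1 is the lymphatic gene among them. They lie at chr2:26583615-26583864 (1 of 3 Egfl7 windows), chr4:94739039-94739288 (Tek), chr1:194938571-194938820 (Cd34) and chr6:60944067-60944316 (Mmrn1), all on the plus strand. The Egfl7 and Mmrn1 windows shown lie inside the genes of the deposited table, which start at 26580014 and 60924976. The sequence after the start of the Prox1 windows, not shown, was not found in an annotated Prox1 transcript.
Egfl7: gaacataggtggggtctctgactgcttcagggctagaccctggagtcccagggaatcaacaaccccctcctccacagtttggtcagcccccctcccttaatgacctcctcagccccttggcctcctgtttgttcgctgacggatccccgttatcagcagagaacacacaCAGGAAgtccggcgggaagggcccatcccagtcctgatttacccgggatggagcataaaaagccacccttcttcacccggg
Tek: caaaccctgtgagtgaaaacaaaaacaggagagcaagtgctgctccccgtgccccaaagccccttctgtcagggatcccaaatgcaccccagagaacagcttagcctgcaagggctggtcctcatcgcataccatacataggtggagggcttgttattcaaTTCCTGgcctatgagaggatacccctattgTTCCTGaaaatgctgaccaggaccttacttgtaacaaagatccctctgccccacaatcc
Cd34: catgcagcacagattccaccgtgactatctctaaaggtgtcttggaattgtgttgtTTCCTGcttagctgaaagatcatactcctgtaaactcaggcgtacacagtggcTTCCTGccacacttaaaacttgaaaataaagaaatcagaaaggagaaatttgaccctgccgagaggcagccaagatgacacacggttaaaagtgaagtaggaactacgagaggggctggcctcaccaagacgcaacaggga
Mmrn1: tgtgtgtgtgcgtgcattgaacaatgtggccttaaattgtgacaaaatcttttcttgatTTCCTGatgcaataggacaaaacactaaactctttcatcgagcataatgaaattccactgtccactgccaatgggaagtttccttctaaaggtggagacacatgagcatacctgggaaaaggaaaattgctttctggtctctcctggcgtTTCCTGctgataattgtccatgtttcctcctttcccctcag

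The first comparison asks how the vessel genes differ between Stat3 ko and WT glands. Of the 29 tested endothelial genes, 8 were higher in Stat3 ko than in WT glands and 0 were lower. All 29 tested members had a positive log2 difference, from 0.27 for Emcn to 1.74 for Lyve1, with a median of 0.85, beside a median of -0.02 over all 13643 tested genes, 46.9% of which were positive. limma called 8 of the 29 (27.6%) higher and 0 lower at an adjusted p under 0.05, where 5.61% of all tested genes were called higher and 8.39% lower. These 8 were S1pr1, Eng, Plvap, Pecam1, Icam2, Clec14a, Ecscr and Lyve1. At an unadjusted p under 0.05, 21 of the 29 passed, as did 4654 of all 13643 tested genes. Every Stat3 ko library lay above every WT library for 13 of the 29 (44.8%), where 9.67% of all tested genes did so. Differences are on the log2(FPKM + 1) scale, which understates changes of genes near 0, and errors of differences are limma's SE. Gene coordinates are those of the deposited table, in GRCm38.

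The count rested on single libraries. It was 0 without WT 1, 1 without WT 4, 2 without Stat3 ko 2, 4 without WT 2, and 5 without Stat3 ko 1 or without WT 3, and it was 17 without Stat3 ko 4. The count over all tested genes moved too, from 766 to between 159 and 1473 with 1 library left out. The median difference of the members ran from 0.50 to 1.02 in these fits. Without WT 1 all 29 differences were positive, with a median of 0.79. Without the 3 libraries over 2% mitochondrial counts the count of called members was 1 (Icam2) and the median difference was 0.42. With FPKM rescaled to plain total counts, an alternative chosen after seeing the data, it was 10, with a median of 0.82, and Kdr and Rasip1 were the 2 added.

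Among the 9 receptors, S1pr1 and Eng passed the test. S1pr1, the receptor for sphingosine-1-phosphate that steadies vessels and that lymphocytes also use to leave lymphoid organs, had 21.1, 35.7, 20.7 and 5.23 FPKM in the Stat3 ko libraries, 2.496, 5.15, 3.82 and 4.14 FPKM in the Chi3l1 ko libraries and 3.75, 5.11, 6.66 and 3.19 FPKM in the WT libraries. Stat3 ko 1, 2 and 3 were far above all the other libraries, and Stat3 ko 4 lay inside the WT range. The mean of S1pr1 was 20.7 ± 12.4 FPKM in Stat3 ko and 4.68 ± 1.55 FPKM in WT (SD, n = 4 each), and limma gave a log2 difference of 1.72 ± 0.44 with an adjusted p of 0.0297. The call for S1pr1 (chr3:115710433-115715072, minus strand) ended without Stat3 ko 1 (adjusted p 0.0541), Stat3 ko 2 (0.0693), WT 1 (0.08696), WT 2 (0.0529) or WT 4 (0.0833) in limma. Without the libraries over 2% mitochondrial counts its difference was 1.07 with a limma adjusted p of 0.178. T cell markers followed S1pr1 in part: their sum over 9 genes was 46.4, 274, 163 and 29.1 FPKM in Stat3 ko 1 to 4 and 17.1 to 35.5 FPKM in WT. Both were highest in Stat3 ko 2, while S1pr1 was alike in Stat3 ko 1 and 3 and the T cell sum was not. The part of T cells in the S1pr1 result was not tested.

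Eng (chr2:32646595-32682669, plus strand), a co-receptor for TGF-beta family ligands and the gene mutated in a hereditary vessel malformation, had 39.7, 25.4, 20.004 and 18.3 FPKM in the Stat3 ko libraries, 10.7, 14.96, 17.5 and 15.3 FPKM in the Chi3l1 ko libraries and 11.8, 13.9, 16.4 and 10.01 FPKM in the WT libraries. Each Stat3 ko library lay above each WT library, with Stat3 ko 1 the highest. The log2 difference was 0.89 ± 0.24, with a limma adjusted p of 0.0319, and the call ended without Stat3 ko 2 (0.0698), WT 1 (0.0917), WT 2 (0.0545) or WT 4 (0.0915). Without the 3 libraries over 2% mitochondrial counts the difference in Eng was 0.54 (limma adjusted p 0.159). Eng shares 61 exonic bases with Fpgs on the other strand.

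The other 7 receptors did not pass. Kdr, the main receptor for VEGF-A in blood vessels, had 12.3, 5.66, 4.03 and 2.802 FPKM in the Stat3 ko libraries, 1.59, 3.72, 2.08 and 2.196 FPKM in the Chi3l1 ko libraries and 1.72, 2.22, 2.44 and 2.22 FPKM in the WT libraries. Its groups did not overlap between Stat3 ko and WT, with Stat3 ko 1 well above the rest, and the log2 difference was 1.03 ± 0.32 with a limma adjusted p of 0.0552. Flt1, which binds and holds back VEGF-A, had a difference of 0.73 ± 0.28. Among the angiopoietin receptors, Tek had 0.81 ± 0.37 and Tie1, its partner, 0.78 ± 0.28. Robo4, a guidance receptor of endothelium, had 0.57 ± 0.32, and Ptprb, a phosphatase that acts on Tek, had 0.92 ± 0.42. Aplnr, the apelin receptor, had the smallest difference of the receptors, 0.44 ± 0.27.

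Of the 10 junction and surface proteins, 5 passed. Plvap (chr8:71497765-71511752, minus strand) had 68.3, 61.7, 43.7 and 40.4 FPKM in the Stat3 ko libraries, 22.7, 35.8, 27.6 and 30.3 FPKM in the Chi3l1 ko libraries and 25.8, 32.7, 35.7 and 25.6 FPKM in the WT libraries. Every Stat3 ko library lay above every library of both other groups, and Stat3 ko 3 and 4 were close to each other. Plvap was 1.79-fold higher by group means, and limma gave a log2 difference of 0.80 ± 0.19 with an adjusted p of 0.0242. That call ended without Stat3 ko 2 (adjusted p 0.0621), WT 1 (0.0811) or WT 4 (0.0716). Without the libraries over 2% mitochondrial counts the difference was 0.49 (limma adjusted p 0.0951).

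Pecam1 (chr11:106654217-106750628, minus strand), the adhesion molecule CD31 of endothelial cells, platelets and leukocytes, had 32.9, 29.7, 16.6 and 10.04 FPKM in the Stat3 ko libraries, 6.15, 11.1, 7.29 and 8.25 FPKM in the Chi3l1 ko libraries and 7.12, 8.68, 11.5 and 7.896 FPKM in the WT libraries. Stat3 ko 1 and 2 were the highest, and Stat3 ko 4 fell within the WT range. limma gave a log2 difference of 1.13 ± 0.32 with an adjusted p of 0.0393. The Pecam1 call ended when any of 9 of the 12 libraries was left out, with limma adjusted p 0.0529, 0.0564 and 0.0567 without Chi3l1 ko 1, 3 or 4, 0.0747 and 0.0989 without Stat3 ko 1 or 2, and 0.112, 0.0730, 0.0576 and 0.0969 without WT 1 to 4. The difference in Pecam1 without the libraries over 2% mitochondrial counts was 0.53 (limma adjusted p 0.177).

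Icam2 (chr11:106377656-106388075, minus strand), a ligand for leukocyte integrins on endothelium, platelets and lymphocytes, had 8.003, 12.6, 6.45 and 3.78 FPKM in the Stat3 ko libraries, 1.39, 3.09, 1.63 and 1.91 FPKM in the Chi3l1 ko libraries and 1.47, 2.32, 3.21 and 1.81 FPKM in the WT libraries. The Stat3 ko libraries lay above both other groups, and Stat3 ko 2 was the highest. Its mean was 7.72 ± 3.72 FPKM in Stat3 ko and 2.204 ± 0.757 FPKM in WT (SD, n = 4 each), 3.504-fold higher, with a log2 difference of 1.37 ± 0.29 and the lowest limma adjusted p of the members, 0.0152. Icam2 remained called in 11 of 12 fits that left out 1 library, ending without WT 1 (adjusted p 0.0551), and was also called without the libraries over 2% mitochondrial counts (0.93, limma adjusted p 0.0466).

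Clec14a (chr12:58264720-58269290, minus strand), a C-type lectin of vessel endothelium, had 4.74, 6.56, 3.39 and 2.35 FPKM in the Stat3 ko libraries, 1.25, 2.38, 2.13 and 1.63 FPKM in the Chi3l1 ko libraries and 1.46, 1.63, 2.24 and 1.98 FPKM in the WT libraries. Stat3 ko and WT libraries did not overlap, and Stat3 ko 4 lay just above the highest WT library. The log2 difference was 0.84 ± 0.23 with a limma adjusted p of 0.0353. The call ended without Chi3l1 ko 3 (0.0501) or 4 (0.0502), without Stat3 ko 1 (0.0654) or 2 (0.0754), and without WT 1 (0.104), WT 2 (0.0726), WT 3 (0.0588) or WT 4 (0.0757). The difference in Clec14a was 0.45 without the libraries over 2% mitochondrial counts (limma adjusted p 0.161).

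Ecscr, an endothelial surface protein of cell movement, had 11.4, 13.02, 16.2 and 9.51 FPKM in the Stat3 ko libraries, 6.32, 8.35, 6.77 and 5.47 FPKM in the Chi3l1 ko libraries and 4.897, 9.42, 6.77 and 6.19 FPKM in the WT libraries. This was the member for which Stat3 ko 3 was highest, and the Stat3 ko libraries all lay above WT, although WT 2 was near the lowest of them. The log2 difference in Ecscr was 0.80 ± 0.19 with a limma adjusted p of 0.0232, and the call ended without Stat3 ko 2 (0.0542), WT 1 (0.0754), WT 3 (0.0543) or WT 4 (0.0658). Without the libraries over 2% mitochondrial counts the difference was 0.81 (limma adjusted p 0.0738). Ecscr shares 62 exonic bases with 1700066B19Rik on the other strand.

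The other 5 surface proteins did not pass. Cdh5 had 40.5, 16.7, 15.8 and 14.1 FPKM in the Stat3 ko libraries, 8.39, 14.3, 9.15 and 12.3 FPKM in the Chi3l1 ko libraries and 9.16, 11.04, 13.2 and 8.75 FPKM in the WT libraries. Stat3 ko 1 stood far above the rest, and the other 3 Stat3 ko libraries lay just above the highest WT library. The log2 difference in Cdh5 was 0.86 ± 0.29 (limma adjusted p 0.0695). Esam, a junction protein of endothelium and platelets, had 0.82 ± 0.33, and Cd34, a sialomucin of endothelium and progenitor cells, had 0.91 ± 0.34. Gpihbp1, which carries lipoprotein lipase to the capillary surface, had 34.6, 6.48, 5.17 and 3.52 FPKM in the Stat3 ko libraries, 1.87, 4.64, 2.69 and 3.01 FPKM in the Chi3l1 ko libraries and 2.54, 4.08, 3.34 and 3.11 FPKM in the WT libraries. Its high value lay in Stat3 ko 1, the library with the highest adipocyte markers, and its difference was 1.13 ± 0.52 (limma adjusted p 0.147). Emcn, a sialomucin of capillaries and veins, had the smallest difference of all members, 0.27 ± 0.26, and without Stat3 ko 1 it was -0.01.

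**Figure D2:**
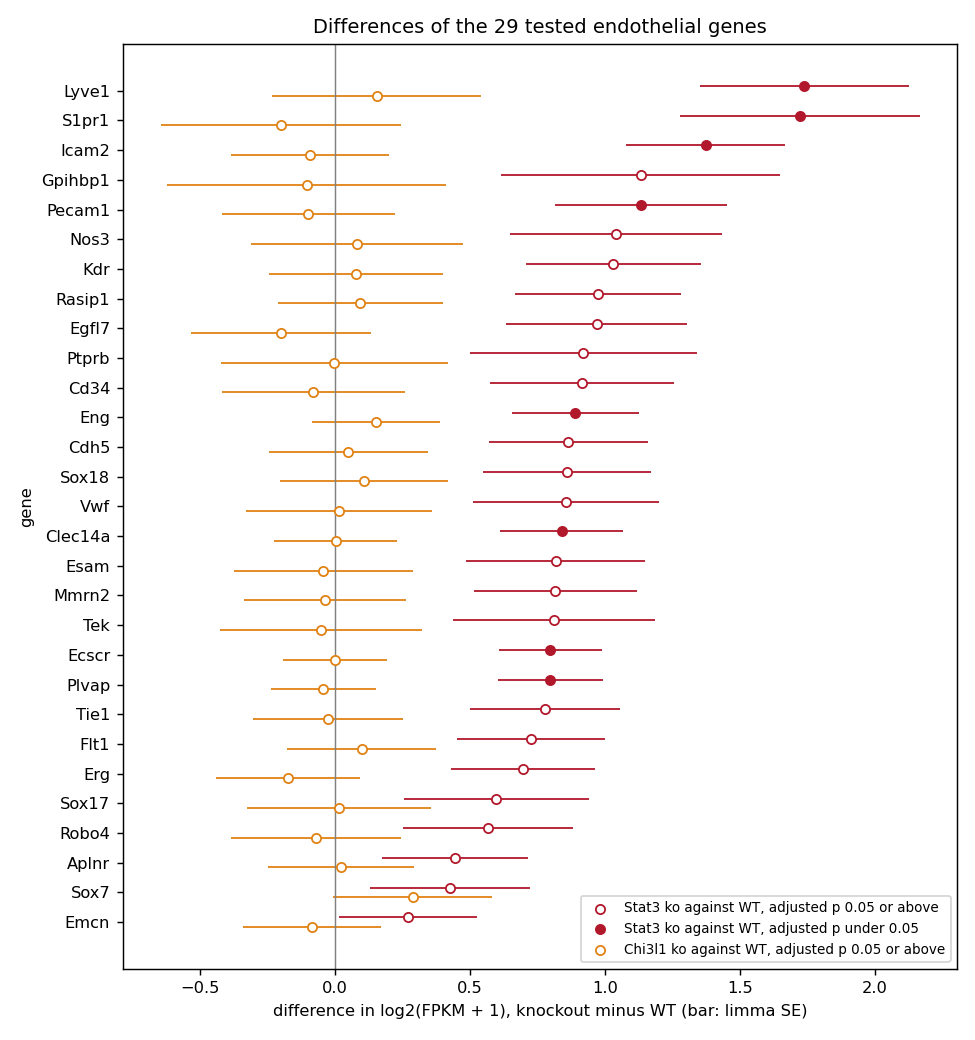
Each row is 1 of the 29 tested genes, each point its difference in log2(FPKM + 1) in Stat3 ko (red) or Chi3l1 ko (orange) minus WT, and each bar limma's SE on either side. All 29 red points lie above 0, filled for the 8 called genes, while the orange points lie between -0.20 and 0.29 and none is filled. Both comparisons use the same WT libraries.

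None of the 4 transcription factors passed. Sox18, a SOX factor of vessel development and the one with the highest level (chr2:181669836-181671640, minus strand), had 39.1, 18.3, 13.5 and 10.2 FPKM in the Stat3 ko libraries, 8.49, 11.4, 9.04 and 12.2 FPKM in the Chi3l1 ko libraries and 8.602, 9.74, 10.7 and 8.61 FPKM in the WT libraries. Stat3 ko 1 was far above the others and Stat3 ko 4 lay inside the WT range, with a log2 difference of 0.86 ± 0.31 and a limma adjusted p of 0.0826. Sox17, known for arterial endothelium, had 0.60 ± 0.34, and Sox7 had 0.42 ± 0.30. Erg, the ETS factor that keeps junction genes on, had 0.70 ± 0.27.

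None of the 3 secreted proteins or the pair of intracellular proteins passed. Egfl7 (chr2:26580014-26593120, plus strand), a matrix protein secreted by endothelium whose gene also holds Mir126a, had 16.01, 15.2, 6.33 and 5.203 FPKM in the Stat3 ko libraries, 2.58, 6.02, 3.68 and 3.16 FPKM in the Chi3l1 ko libraries and 3.56, 4.52, 5.87 and 3.94 FPKM in the WT libraries. Stat3 ko 1 and 2 were high and Stat3 ko 4 was inside the WT range, with a log2 difference of 0.97 ± 0.33 and a limma adjusted p of 0.0724. Egfl7 shares exonic bases with Agpat2, Gm20532, Mir126a and Mir126b, so the source of some reads is uncertain. Vwf, the clotting factor stored by endothelium and made also by megakaryocytes, had 0.85 ± 0.34, and Mmrn2, a matrix partner of Clec14a, had 0.82 ± 0.30. Nos3, the endothelial nitric oxide synthase, had 1.04 ± 0.39. Rasip1, a Ras-binding protein needed for vessel lumens, had 0.97 ± 0.31 with a limma adjusted p of 0.0556. Nos3 and Rasip1 share 1040 and 654 exonic bases with Gm15587 and Izumo1, among others. Sox17, Cd34 and Prox1 share 804, 148 and 133 exonic bases with Gm37587, Gm16897 and Prox1os, each on the other strand.

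Lyve1 (chr7:110850607-110863239, minus strand), a hyaluronan receptor of lymphatic endothelium that some macrophages also make, was the 1 lymphatic gene tested. It had 11.4, 9.99, 5.07 and 5.48 FPKM in the Stat3 ko libraries, 1.52, 3.67, 0.807 and 2.11 FPKM in the Chi3l1 ko libraries and 0.959, 2.16, 3.54 and 0.537 FPKM in the WT libraries. The Stat3 ko libraries lay above all others, while WT 3 and Chi3l1 ko 2 were the highest of their groups. Lyve1 averaged 7.98 ± 3.17 FPKM in Stat3 ko and 1.798 ± 1.35 FPKM in WT (SD, n = 4 each), 4.44-fold higher. The log2 difference was 1.74 ± 0.39 with a limma adjusted p of 0.0176, and the call ended without WT 1 (0.0622) or WT 4 (0.0524). Without the libraries over 2% mitochondrial counts the difference was 1.29 (limma adjusted p 0.0833). Macrophage markers summed to 622 to 1118 FPKM over 10 genes in Stat3 ko and 413 to 826 FPKM in WT, and their part in the Lyve1 result was not tested.

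The other 3 lymphatic genes were near or under 1 FPKM. Flt4, the receptor for VEGF-C, had 1.52, 1.64, 1.08 and 0.868 FPKM in the Stat3 ko libraries, 0.533, 0.566, 0.670 and 0.551 FPKM in the Chi3l1 ko libraries and 0.517, 0.587, 0.979 and 0.774 FPKM in the WT libraries. Prox1, the transcription factor that sets lymphatic identity, had 0.357, 1.14, 0.812 and 0.543 FPKM in the Stat3 ko libraries, 0.431, 0.399, 0.382 and 0.454 FPKM in the Chi3l1 ko libraries and 0.220, 0.272, 0.408 and 0.249 FPKM in the WT libraries. For both genes Stat3 ko 2 was the highest library, and each overlapped between Stat3 ko and WT. Mmrn1, a secreted protein of lymphatic endothelium and platelets, was counted by 58, 130, 64 and 21 reads in the Stat3 ko libraries, by 0, 18, 0 and 0 in the Chi3l1 ko libraries and by 2, 3, 45 and 1 in the WT libraries. A count of 0 allows up to 3 reads in a library. On the recovered counts of these 3 genes, edgeR gave for Stat3 ko against WT a log2 difference of 0.83 for Flt4 (adjusted p 0.0451), 1.30 for Prox1 (0.0259) and 2.46 for Mmrn1 (0.195).

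The Stat3 ko libraries differed in how far the endothelial genes were raised and in which ones. By the median over the 32 genes, the fold over the WT mean was 4.12, 1.96, 1.52 and 1.25 in Stat3 ko 1 to 4, 0.697, 1.37, 0.907 and 0.926 in Chi3l1 ko 1 to 4 and 0.800, 1.05, 1.24 and 0.862 in WT 1 to 4. Stat3 ko 1 stood highest, and Stat3 ko 4 lay just above the highest WT library. The number of members above every WT library was 31, 28, 26 and 15 in Stat3 ko 1 to 4 and 1, 21, 2 and 3 in Chi3l1 ko 1 to 4. Stat3 ko 1 was the highest of all 12 libraries for 25 members, Stat3 ko 2 for Clec14a, Icam2, S1pr1, Flt4, Prox1 and Mmrn1, and Stat3 ko 3 for Ecscr. For neither count was the share over all tested genes taken by single library. These counts therefore do not set the members apart from other genes.

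The pair of highest libraries differed in their leading genes. In Stat3 ko 1 the largest folds over the WT mean were Gpihbp1 at 10.6, Nos3 at 9.89, Ptprb at 8.405, Vwf at 6.97 and Sox17 at 6.65. The same genes stood at 1.98, 2.68, 1.904, 1.73 and 1.93 in Stat3 ko 2. In Stat3 ko 2 the largest folds were Mmrn1 at 10.8, S1pr1 at 7.63, Icam2 at 5.74, Lyve1 at 5.56 and Prox1 at 3.97. Those 5 stood at 5.22, 4.52, 3.63, 6.32 and 1.24 in Stat3 ko 1. Of the 4 lymphatic genes, Mmrn1, Prox1 and Flt4 (2.298 in Stat3 ko 2 and 2.12 in Stat3 ko 1) had the larger fold in Stat3 ko 2, and Lyve1 had it in Stat3 ko 1. These are 1 library each, so the difference has no replicate check.

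**Figure D3:**
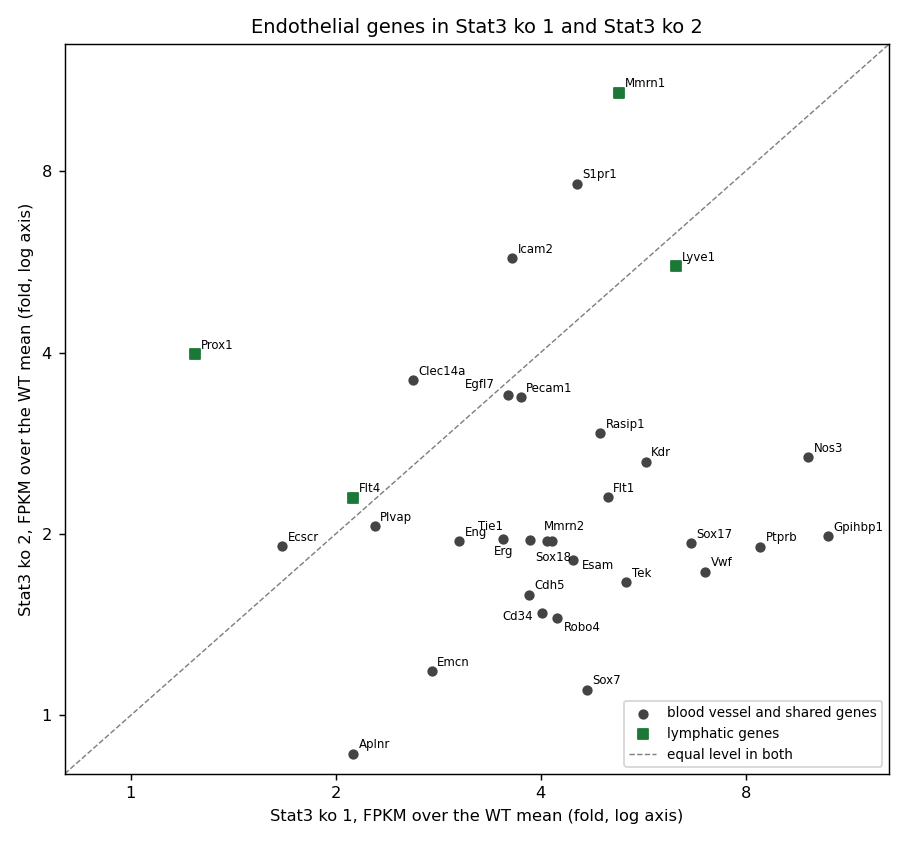
Each point is 1 of the 32 genes, placed by its FPKM over the WT mean in Stat3 ko 1 (horizontal, log axis) and in Stat3 ko 2 (vertical, log axis), with lymphatic genes as squares and the dashed line marking equal folds. Gpihbp1, Nos3 and Ptprb lie far to the right of the line, and Mmrn1, S1pr1, Icam2 and Prox1 above it.

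Chi3l1 ko was compared with WT to see whether loss of Chi3l1 goes with a change in vessel genes. No member passed the test in either direction. limma called 0 of 29 in either direction and 0 passed an unadjusted p under 0.05, where 0.0% of all tested genes were called higher and 0.00733% lower. Of all 13643 tested genes, 222 passed that unadjusted threshold. edgeR and DESeq2 also called 0 of 32, with 0 at an unadjusted p under 0.05 each, where 0.0% and 0.0051% of all their genes were called higher. The log2 differences ran from -0.20 to 0.29 with a median near 0, 14 positive and 15 negative. That split rested on single libraries: 26 of 29 were positive without Chi3l1 ko 1 (median 0.09) and 3 without Chi3l1 ko 2 (median -0.15). All 32 genes overlapped between the groups, and across the tested genes 1.12% lay wholly above WT and 1.36% wholly below. Plvap had a difference of -0.04 ± 0.19, Eng 0.15 ± 0.24, Pecam1 -0.10 ± 0.32, Cdh5 0.05 ± 0.29, Lyve1 0.15 ± 0.39 and S1pr1 -0.20 ± 0.44. Sox7 had the most positive, 0.29 ± 0.30. The SE was smallest for Ecscr (0.00 ± 0.19) and largest for Gpihbp1 (-0.11 ± 0.52), and a difference of several SE can go uncalled with 4 libraries a group, as for Kdr in Stat3 ko against WT (1.03 ± 0.32, limma adjusted p 0.0552). These values therefore do not show that Chi3l1 ko and WT levels were alike. In the authors' deposited table, Prox1 and Sox7 are listed for this comparison, both higher in Chi3l1 ko, with log2 fold changes of 0.54 and 0.51, p-values of 0.0395 and 0.0407 and an adjusted p of 0.9997.

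Stat3 ko was also set against Chi3l1 ko, which shares the model and the treatment. The same 4 Stat3 ko libraries enter this comparison and the one against WT, so the counts are not independent. limma called 8 of 29 (27.6%) higher and 0 lower, where 5.19% of all tested genes were called higher and 8.0% lower. At an unadjusted p under 0.05, 24 of 29 passed, as did 4329 of all 13643 tested genes. All 29 differences were positive, from 0.14 to 1.92 with a median of 0.85. Icam2 had a log2 difference of 1.47 ± 0.29 (limma adjusted p 0.0114), S1pr1 1.92 ± 0.44 (0.0200), Lyve1 1.58 ± 0.39 (0.0246), Pecam1 1.23 ± 0.32 (0.0305) and Egfl7 1.17 ± 0.33 (0.0429). Plvap had 0.84 ± 0.19 (limma adjusted p 0.0200), Ecscr 0.80 ± 0.19 (0.0234) and Clec14a 0.84 ± 0.23 (0.0364). Eng did not pass here, with 0.74 ± 0.24 and a limma adjusted p of 0.0609. Every Stat3 ko library lay above every Chi3l1 ko library for 8 of the 32 members, 6 of them tested, where 6.85% of all tested genes did so. These were Eng, Plvap, Ecscr, Icam2, S1pr1, Lyve1, Flt4 and Mmrn1. For Flt4, edgeR on the recovered counts gave 1.13 with an adjusted p of 0.0179.

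Single libraries moved this count as well. It was 1 without Chi3l1 ko 1, 3 or 4, 2 without Stat3 ko 2, 5 without Stat3 ko 1 and 17 without Stat3 ko 4, and 3 without the libraries over 2% mitochondrial counts. Over all tested genes the count called higher, 708, ran from 176 to 1242 with 1 library left out. Icam2 remained called in all 12 fits that left out 1 library. Leaving out Chi3l1 ko 1, 3 or 4 ended the calls of S1pr1 (limma adjusted p 0.0680, 0.0529 and 0.0544), Plvap (0.0678, 0.0560 and 0.0519), Ecscr (0.0720, 0.0588 and 0.0733), Lyve1 (0.0756, 0.0721 and 0.0618), Pecam1 (0.0940, 0.0781 and 0.0743), Clec14a (0.110, 0.0691 and 0.0967) and Egfl7 (0.124, 0.0941 and 0.110). Leaving out Stat3 ko 2 ended those of Plvap (0.0529), Ecscr (0.0562), Lyve1 (0.0639), Pecam1 (0.0787), Clec14a (0.0784) and Egfl7 (0.108). Leaving out Stat3 ko 1 ended those of Pecam1 (0.0558), Clec14a (0.0678) and Egfl7 (0.0824), and leaving out WT 1 to 4 ended those of Clec14a (0.0515, 0.0514, 0.0506 and 0.0520) and Egfl7 (0.0601, 0.0600, 0.0559 and 0.0598). Leaving out the libraries over 2% mitochondrial counts ended the calls of Pecam1 (difference 0.77, limma adjusted p 0.0669), Clec14a (0.54, 0.104), S1pr1 (1.39, 0.0930), Lyve1 (1.37, 0.0724) and Ecscr (0.91, 0.0552). Icam2 (1.18, 0.0232), Egfl7 (0.71, 0.0417) and Plvap (0.63, 0.0457) were called.

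Count-based tools called more members. For Stat3 ko against WT, edgeR called 17 of 32 (10.0% of all its genes) and DESeq2 26 of 32 (13.4%), all higher. The authors' deposited table lists 28 members for this comparison, all higher in Stat3 ko, 23 of them with an adjusted p under 0.05. Of these 23, 21 were among the 29 tested here, where the authors' deposited table lists 10.4% of the 13643 genes in that way. Kdr, for example, is in the authors' deposited table with a log2 fold change of 1.52 and an adjusted p of 0.00633, and Nos3 with 1.99 and 0.00967. For Stat3 ko against Chi3l1 ko, edgeR called 11 of 32 (7.8% of its genes) and DESeq2 25 of 32 (12.1%).

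Other genes of the vessel wall moved in part with the members. In Stat3 ko against WT, limma called 5.61% of all tested genes higher and 8.39% lower, the shares to set beside the lists here and below. A single call in so short a list does not set it apart from these shares. Of 11 tested VEGF and other vessel ligands and co-receptors, 2 were higher in Stat3 ko than in WT and 0 lower, with a median difference of 0.68. These were the co-receptors Nrp1, at 7.93 ± 4.85 FPKM in Stat3 ko and 2.41 ± 0.537 FPKM in WT (1.27 ± 0.28, limma adjusted p 0.0172), and Nrp2 (0.88 ± 0.18, 0.0116). The 2 with the highest levels, Angptl4 (which is not a VEGF) and Vegfb, had 1.71 ± 0.62 and 1.15 ± 0.42 and did not pass. Of 10 Notch and arterial genes, 0 were higher and 1 lower, with a median of 0.32. The lower one was Hey1, a target of Notch signalling, at 6.298 ± 2.28 FPKM in Stat3 ko and 17.6 ± 3.22 FPKM in WT (-1.39 ± 0.26, limma adjusted p 0.00921), while Notch1 had -0.42 ± 0.14 (limma adjusted p 0.0646). Which cells of the gland made Hey1 and Notch1 was not tested, so these values need not be those of vessels.

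Of 8 sprouting genes, Pdgfb, the growth factor that draws pericytes to vessels, was higher (0.51 ± 0.14, limma adjusted p 0.0401), and the median was 0.41. The basement membrane collagens Col4a1 and Col4a2 had 0.22 ± 0.34 and 0.32 ± 0.35. Of 7 venous and leukocyte adhesion genes, Nr2f2, a factor of venous identity, was higher (1.03 ± 0.23, limma adjusted p 0.0187) and Ephb4, a venous ephrin receptor that epithelium also makes, was lower (-0.64 ± 0.15, 0.0212). Glycam1, a ligand for L-selectin that mammary epithelium also makes, had 0.0281, 439.6, 161 and 0 FPKM in the Stat3 ko libraries, 5.22, 9.99, 0.0940 and 2.92 FPKM in the Chi3l1 ko libraries and 0.708, 8.38, 1.38 and 0.809 FPKM in the WT libraries. Its high values lay in Stat3 ko 2 and 3, the libraries with the highest T cell and B cell markers.

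Of 11 capillary and lipid uptake genes, Fabp4 (3.31 ± 0.92, limma adjusted p 0.0373) and Cd36 (2.80 ± 0.84, 0.0471) were higher and 0 lower, with a median of 1.29. Both genes are also strongly made by adipocytes. Fabp4 had 1596, 267, 159.5 and 71.4 FPKM in the Stat3 ko libraries, 33.6, 245, 27.3 and 30.1 FPKM in the Chi3l1 ko libraries and 13.5, 42.4, 23.1 and 32.9 FPKM in the WT libraries, with Stat3 ko 1 far above all others. Of 25 other endothelial genes, 6 were higher and 0 lower, with a median of 0.75. They included the transcription factors Lmo2 (0.83 ± 0.17, limma adjusted p 0.0116) and Fli1 (1.26 ± 0.29, 0.0193), the adrenomedullin receptor gene Calcrl (1.12 ± 0.28, 0.0253), Gimap4 (1.97 ± 0.49, 0.0269), Gimap6 and the flow-responsive factor Klf2 (1.55 ± 0.40, 0.0307). Lymphocytes also make Fli1, Klf2 and both Gimap genes. Ets2, the highest of that list, had -0.47 ± 0.15 and did not pass. Of the other lymphatic genes only Pdpn was tested, with 0.51 ± 0.21 (limma adjusted p 0.108). Against WT, Chi3l1 ko had 0 calls by limma in every one of these lists, and over them 1 gene passed an unadjusted p under 0.05.

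Markers of other cells moved in part with the endothelial genes. The 28 blood vessel and shared members summed to 512, 319, 231 and 184 in the Stat3 ko libraries, 105, 184, 134 and 142 in the Chi3l1 ko libraries and 119, 151, 175 and 119 in the WT libraries, in FPKM. The 13 mural markers, of pericytes and smooth muscle, summed to 390.01, 319.5, 139 and 218 in the Stat3 ko libraries, 63.8, 278, 69.2 and 88.03 in the Chi3l1 ko libraries and 64.4, 119.9, 127 and 66.97 in the WT libraries, in FPKM. The 12 adipocyte markers summed to 9061, 1324, 1193 and 969.9 in the Stat3 ko libraries, 280.03, 1144, 263 and 323 in the Chi3l1 ko libraries and 180.5, 556, 279 and 334 in the WT libraries, in FPKM. In each of the 3 sums Stat3 ko 1 was the highest library and Chi3l1 ko 2 the highest of its group. Pdgfrb was the 1 of 11 tested mural markers called higher in Stat3 ko against WT (0.92 ± 0.21, limma adjusted p 0.0198), and 5 of 12 adipocyte markers were called, among them Pck1 (4.53 ± 1.11, 0.0248) and Cfd (2.60 ± 0.66, 0.0284). Of all tested genes, 5.61% were called higher.

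T cell and B cell markers were highest in Stat3 ko 2. The 9 T cell markers summed to 46.4, 274, 163 and 29.1 in the Stat3 ko libraries, 22.4, 21.99, 37.6 and 19.9 in the Chi3l1 ko libraries and 17.1, 35.5, 18.1 and 17.95 in the WT libraries, in FPKM, and 3 of 9 were called higher in Stat3 ko against WT (Cd8b1, Cd8a and Cd2). The 7 B cell markers summed to 10.9, 431, 148 and 0.851 in the Stat3 ko libraries, 0.976, 1.14, 0.651 and 1.72 in the Chi3l1 ko libraries and 0.593, 3.23, 0.514 and 0.798 in the WT libraries, in FPKM, with 0 of 2 tested called by limma, both of them at an unadjusted p under 0.05. Stat3 ko 3 was the next highest for both, and Stat3 ko 4 was among the WT values for B cell markers. The 8 platelet markers summed to 49.6, 21.6, 15.1 and 14.03 in the Stat3 ko libraries, 7.89, 14.1, 4.16 and 4.23 in the Chi3l1 ko libraries and 5.07, 9.85, 8.27 and 5.66 in the WT libraries, in FPKM, mostly Pf4, which macrophages also make, and Gp1bb was at 0 in all 12 libraries. Stat3 ko 1 was the highest library for them, and Stat3 ko 1 to 4 stood in the same order as in the sum of the 28 blood vessel and shared members. The part of platelets in the endothelial results was not tested. Macrophage markers Cd68, Csf1r and Mrc1 (3 of 10) and the fibroblast marker Pdgfra (1 of 9) were called higher, where 5.61% of all tested genes were.

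Epithelial markers were lowest in Stat3 ko 1 and 2. The 10 epithelial markers, led by Krt8 and Krt18, summed to 1213, 1382, 2656 and 2945 in the Stat3 ko libraries, 2913, 2158, 2752 and 2680.3 in the Chi3l1 ko libraries and 2850.2, 2340.2, 2542 and 3482 in the WT libraries, in FPKM. Stat3 ko 3 and 4 lay inside the WT range. Of the 10, 1 (Elf3) was called lower in Stat3 ko against WT (-1.01 ± 0.23, limma adjusted p 0.0190), where 8.39% of all tested genes were called lower. None of 5 basal epithelial markers, 13 mitochondrially encoded genes or 8 proliferation genes was called by limma, with 1, 11 and 2 of them at an unadjusted p under 0.05. Of all 13643 tested genes, 4654 passed that unadjusted threshold. What part the share of fat, lymphoid or epithelial tissue in a sample, or the mitochondrial counts, had in the endothelial results was not tested.

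**Figure D4:**
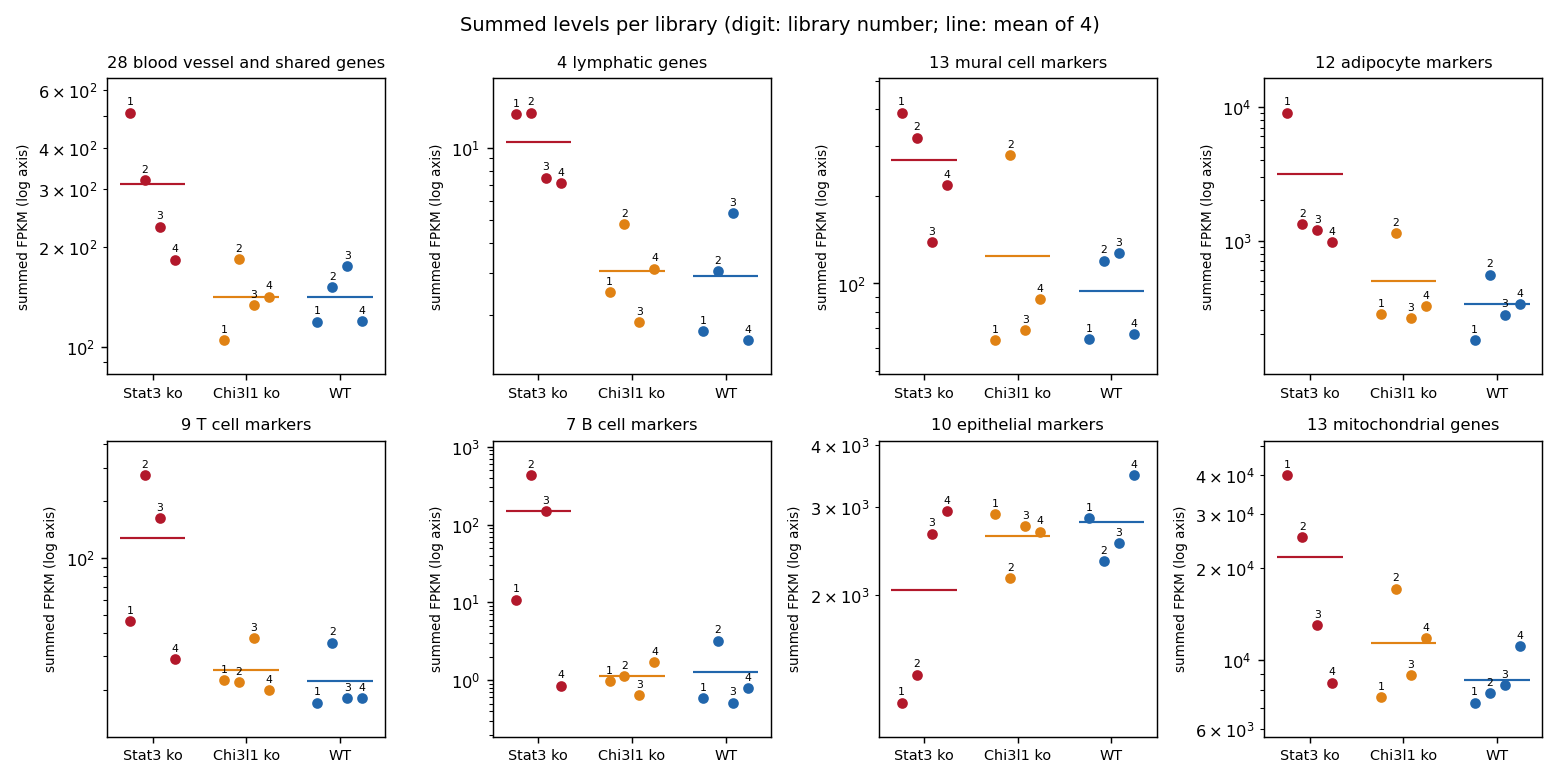
Each panel gives the summed FPKM (log axis) of 1 marker list in each of the 12 libraries, with the library number above the point and a line at the mean of 4. The 28 blood vessel genes run from 184 to 512 in Stat3 ko, 105 to 184 in Chi3l1 ko and 119 to 175 in WT, and Stat3 ko 1 is highest for blood vessel, mural and adipocyte genes while Stat3 ko 2 is highest for T cell and B cell markers.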

How the data were processed

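Total RNA of mammary gland was sequenced in 12 libraries, 4 per genotype as the labels group them, with NEBNext Ultra II libraries per the labels' protocols. Builds (GRCm38 and mm10) and tools (STAR, HTSeq, Trimmomatic, limma and edgeR) are named in the submitters' processing notes with no versions or roles. The authors deposited FPKM for 54532 genes, a normalised signal per gene (counts divided by 1 factor per library), which was not used, and tables of raw counts, log2 fold changes, p-values and adjusted p-values for genes past an unadjusted p of 0.05. Whether counting used strand is not given in the sources used here, so genes that share exonic bases are uncertain. From the deposited FPKM and gene lengths, whole counts were recovered (largest distance from a whole read 0.000123), and of 55832 deposited counts compared 0 differed. All 32 members have the same coordinates in the GENCODE M21 annotation of GRCm38.

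The 13643 genes that reached 1 FPKM in 4 or more libraries were tested. limma 3.58.1 in R 4.3.3, with an intensity trend, was fitted to log2(FPKM + 1) of all 12 libraries with 3 group means and no covariate, two-sided, with Benjamini-Hochberg adjustment over all tested genes and a call at an adjusted p under 0.05. Means carry the SD over 4 libraries. Alternatives were edgeR 4.0.16 (quasi-likelihood, TMM) and DESeq2 1.42.0 on the recovered counts, array weights, a pseudocount of 0.1, median-of-ratios scaling, scaling to plain library totals (added after seeing the data), a filter at a mean of 5 FPKM or no filter, a fit of the 2 compared groups alone, and leaving out each library or the 3 libraries over 2% mitochondrial counts. The fits were tested on simulated data. A count of 0 was read as allowing up to 3 reads, for counting error only. Python 3.11.15 with pandas 2.3.3 and matplotlib 3.10.9 prepared tables and figures.

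The members, the other lists and the tests were chosen with earlier results of these data known. Members called in any comparison and the highest of each role are given by library, the others by difference. From each other list come up to 4 called genes with the lowest adjusted p for Stat3 ko against WT and the 2 highest genes, of which those of non-vessel marker lists are given as sums. Kdr, Cdh5, Gpihbp1, Glycam1, Gimap6 and Klf2 by library or by call, and the leading genes of Stat3 ko 1 and 2, were chosen after their values were seen. Ccl21a has 2 identifiers and was left out.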

Additional observations from a re-analysis of the deposited data

Results flagged for a closer look

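In a group of 4 libraries, a highest or lowest value was listed when its gap to the next one took up more of the group's range than Dixon's 95% critical value for 4 samples. This held for 15 of 96 groups (32 genes in 3 genotypes). Chance flags about 1 in 20 groups when they are independent and their values normal. These groups share the same 12 libraries, and FPKM need not be normal, so the count cannot be set against that rate. Of the 15, 10 were the value of Stat3 ko 1, the library with the highest adipocyte markers and mitochondrial counts. It was the highest of its group for Cdh5 (40.5 FPKM), Tek (10.8 FPKM), Emcn (4.96 FPKM), Vwf (7.68 FPKM), Ptprb (13.4 FPKM), Sox7 (4.91 FPKM), Sox17 (4.68 FPKM), Nos3 (9.68 FPKM), Gpihbp1 (34.6 FPKM) and Cd34 (22.1 FPKM). None of these 10 genes was called in Stat3 ko against WT by limma. Chi3l1 ko 2 was the highest of its group for Nos3 (2.07 FPKM) and for Mmrn1 (0.139 FPKM, the other 3 libraries being at 0). WT 3 was the highest of its group for Tie1 (5.31 FPKM) and Mmrn1 (0.404 FPKM), and WT 1 was the lowest of its group for Nos3 (0.569 FPKM).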

How the results depend on the processing

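No paired analysis was possible because the labels give the groups no shared replicate numbers. Members called higher in Stat3 ko against WT, 8 with limma, were 17 with edgeR, 26 with DESeq2, 3 with array weights, 5 with a mean of at least 5 FPKM (of 14 tested), 4 with no filter, 1 with only the 2 compared groups and 1 without the libraries over 2% mitochondrial counts, and 0 to 17 with 1 library left out. Against Chi3l1 ko, also 8, they were 25 with DESeq2, 5 with a mean of at least 5 FPKM, 3 with no filter, 3 with only the 2 compared groups and 3 without the libraries over 2% mitochondrial counts, and 1 to 17 with 1 library left out. A pseudocount of 0.1, median-of-ratios scaling and, chosen after seeing the data, scaling to plain library totals (10 and 9) kept both counts within 1.5 times. The settings with only the compared groups, and those with a library left out, use fewer samples. For the others the cause was not tested.

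Over all genes, Stat3 ko against WT had 766 higher, and 1644 with edgeR, 2702 with DESeq2, 396 with a mean of at least 5 FPKM, 446 with no filter, 148 with only the compared groups and 159 to 1473 with 1 library left out. It had 1145 lower, and 703 with no filter, 358 with only the compared groups, 658 without the libraries over 2% mitochondrial counts and 412 to 1779 with 1 left out. Stat3 ko against Chi3l1 ko had 708 higher, and 1282 with edgeR, 2450 with DESeq2, 328 with a mean of at least 5 FPKM, 430 with no filter, 166 with only the compared groups and 176 to 1242 with 1 left out, and 1091 lower, with 689, 339 and 435 to 1648 under no filter, only the compared groups and 1 left out. Chi3l1 ko against WT had 0 higher (1 with DESeq2) and 1 lower (6 with DESeq2, 2 with array weights), and 0 higher and 1 lower with any 1 library left out.

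In the 2 comparisons with Stat3 ko, the direction turned for 2 uncalled members. Emcn in Stat3 ko against WT was -0.021 with array weights, -0.010 (without Stat3 ko 1) to 0.40 with 1 library left out and -0.10 without the libraries over 2% mitochondrial counts. Sox7 in Stat3 ko against Chi3l1 ko was -0.11 with array weights, -0.23 (without Stat3 ko 1) to 0.27 with 1 left out and -0.22 without the libraries over 2% mitochondrial counts. More members than these turned in Chi3l1 ko against WT, where differences lay near 0. There 14 of 29 were positive, 3 to 26 with 1 library left out and 6 with array weights.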
